A study of Homo sapiens with 4 samples.

Results

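The genes described are 10 enzymes of serine synthesis and of folate one-carbon metabolism. They were chosen by name, as PHGDH, PSAT1, PSPH, SHMT1, SHMT2, MTHFD1, MTHFD2, MTHFD1L, ALDH1L1 and ALDH1L2. No rule on their values was used, but earlier results of these data were known when they were chosen. Each was found by its NCBI Gene number among the 46427 genes measured. All 10 had a line in every table, and 8 were at 1 TPM or more in all 4 libraries. TPM is a level per transcript length scaled so that a library sums to 1000000.

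The study examined what loss of COP1, an E3 ubiquitin ligase, does in liver tumour cells. Huh7 and HepG2, established human liver tumour cell lines labelled as hepatocellular carcinoma, received 20 nM of either a control siRNA without a target (NC-siRNA) or an siRNA to COP1 (COP1-siRNA), and RNA was harvested after 48 h. The cells given NC-siRNA carry the genotype label WT and those given COP1-siRNA the label COP1 Knockdown. The knockdown was transient, so these cells are transfected pools and no deletion lines. A single library stood for each line with each siRNA, so no difference below has a replicate check, and no p-value or SD is given.

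Serine is made from a glycolytic intermediate in successive steps by PHGDH, PSAT1 and PSPH. The SHMT enzymes pass a carbon of serine to tetrahydrofolate and leave glycine, SHMT1 in the cytosol and SHMT2 in mitochondria. The folate-bound carbon is interconverted by MTHFD1 in the cytosol and by MTHFD2 and MTHFD1L in mitochondria, for use in purine and thymidylate synthesis, and ALDH1L1 (cytosol) and ALDH1L2 (mitochondria) take it off as carbon dioxide.

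On GRCh38, in the coordinates of the tables, PHGDH lies at chr1:119711934-119744218, PSAT1 at chr9:78297125-78330093 and MTHFD1 at chr14:64388353-64460025, all on the plus strand. SHMT2 lies at chr12:57229685-57234935, MTHFD2 at chr2:74198563-74217565 and MTHFD1L at chr6:150865679-151101887, also on the plus strand. The minus strand holds PSPH at chr7:56010487-56051604, SHMT1 at chr17:18327860-18363563, ALDH1L1 at chr3:126103561-126197758 and ALDH1L2 at chr12:105019784-105084609. The whole gene, exons and introns, is spanned in each case.

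The 4 promoters printed here belong to the enzymes with values above 0 in every library whose level was more than 1.5-fold higher in HepG2 cells. Each window runs from 250 bases before an annotated RefSeq start to 50 bases after it on GRCh38.p14, 5′ to 3′ on the gene's own strand. The windows are chr1:119711684-119711983 for PHGDH, chr14:64388103-64388402 for MTHFD1, chr2:74198365-74198664 for MTHFD2 and chr6:150866236-150866535 for MTHFD1L, which has 4 promoters in the table. The MTHFD1L window lies inside the span of the gene, which begins at chr6:150865679, so it is taken at an inner start. Capitals mark matches to an ATF4 element, TGATGNAA, or to an E-box, CACGTG, searched on both strands.
PHGDH: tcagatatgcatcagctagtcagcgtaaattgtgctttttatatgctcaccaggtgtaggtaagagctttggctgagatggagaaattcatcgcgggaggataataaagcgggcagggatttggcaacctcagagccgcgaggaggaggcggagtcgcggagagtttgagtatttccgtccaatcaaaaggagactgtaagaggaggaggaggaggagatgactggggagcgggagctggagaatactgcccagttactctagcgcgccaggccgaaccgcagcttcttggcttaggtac
MTHFD1: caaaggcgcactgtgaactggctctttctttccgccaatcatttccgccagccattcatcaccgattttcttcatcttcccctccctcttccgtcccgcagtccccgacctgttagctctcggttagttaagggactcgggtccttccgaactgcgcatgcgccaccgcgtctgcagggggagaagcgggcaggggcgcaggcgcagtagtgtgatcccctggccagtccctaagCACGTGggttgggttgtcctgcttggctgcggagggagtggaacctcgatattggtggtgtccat
MTHFD2: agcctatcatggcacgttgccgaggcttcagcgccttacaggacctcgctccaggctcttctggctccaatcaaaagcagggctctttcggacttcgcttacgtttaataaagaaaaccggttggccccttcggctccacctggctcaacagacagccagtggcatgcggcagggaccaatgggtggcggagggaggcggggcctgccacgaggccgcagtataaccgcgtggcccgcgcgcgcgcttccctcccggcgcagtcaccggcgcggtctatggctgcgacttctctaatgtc
MTHFD1L: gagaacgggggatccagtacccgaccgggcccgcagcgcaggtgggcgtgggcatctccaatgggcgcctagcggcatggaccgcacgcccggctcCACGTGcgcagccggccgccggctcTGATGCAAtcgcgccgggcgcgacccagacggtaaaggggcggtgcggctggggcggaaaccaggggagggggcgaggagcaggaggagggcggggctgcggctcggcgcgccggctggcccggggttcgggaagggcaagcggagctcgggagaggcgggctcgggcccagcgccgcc
Of these 4 windows, MTHFD1L held both patterns, MTHFD1 held the E-box, and PHGDH and MTHFD2 held neither. The ATF4 element of MTHFD1L began 129 bases before the inner start of its window and its E-box 154 bases before it. The E-box of MTHFD1 began 15 bases before the start of that gene. The element was found in 3.62% of 35116 promoters of that length and the E-box in 7.26%. Counted per gene over all promoters of a gene, the shares were 4.46% and 8.77% of 27305 genes. Among the 7 of 10 enzymes with a promoter in the table, the further 3 (PSAT1, SHMT1 and ALDH1L1) held neither. PSPH, SHMT2 and ALDH1L2 had no entry. The MTHFD1L window had a GC content of 76.7%, against 52.7% for PHGDH, 59.7% for MTHFD1, 62.7% for MTHFD2 and a median of 58.7% over all promoters. A match of letters is a description of the window and not a binding site.

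COP1 itself stood at 19.7 (NC-siRNA) and 6.18 TPM (COP1-siRNA) in Huh7 cells and at 26.9 and 16.1 TPM in HepG2 cells. Thus 31.4% of the control level was left in Huh7 cells and 59.9% in HepG2 cells, and the knockdown in HepG2 cells was past 1.5-fold but not 2-fold. All 9 hepatocyte markers were above 0 in every library, with a summed level of 20309 and 18181 TPM in Huh7 cells (NC-siRNA, then COP1-siRNA) and 2672 and 3083 TPM in HepG2 cells. Of 9 markers of other cells, PTPRC was at 0 throughout and ACTA2 at 0 in Huh7 cells, while 4 of the 9 in Huh7 cells and 5 of the 9 in HepG2 cells were at 1 TPM or more with either siRNA. VIM reached 496 to 878 TPM and KRT19 53.2 to 207 TPM over the libraries. CD68 was at 58.2 and 56.4 TPM and PECAM1 at 5.08 and 7.36 TPM in Huh7 cells, and CD68 was at 15.6 and 17.3 TPM, ACTA2 at 11.1 and 15.4 TPM and COL1A1 at 2.33 and 2.47 TPM in HepG2 cells. The summed level of the list was 760 and 948 TPM in Huh7 cells and 728 and 989 TPM in HepG2 cells. The ratio of coverage to FPKM, which follows depth, was 1.13-fold (Huh7) and 1.27-fold (HepG2) as high with COP1-siRNA as with NC-siRNA.

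PHGDH, PSAT1 and SHMT2 were among the 4 highest of the set in every library. In Huh7 cells with NC-siRNA the order by level was PSAT1 at 307 TPM, SHMT2 at 274, PHGDH at 140, PSPH at 65.4, SHMT1 at 64.5, MTHFD1 at 52.6, MTHFD1L at 33.6 and MTHFD2 at 28.0 TPM, with ALDH1L1 and ALDH1L2 listed at 0. With NC-siRNA in HepG2 cells the order was PHGDH at 340.5 TPM, SHMT2 at 239, MTHFD1 at 237, PSAT1 at 224, MTHFD2 at 132, SHMT1 at 84.0, PSPH at 60.3, MTHFD1L at 58.9, ALDH1L2 at 9.39 and ALDH1L1 at 2.44 TPM. Neighbours such as PSPH and SHMT1 in Huh7 cells, or SHMT2 and MTHFD1 in HepG2 cells, lay so close that single libraries cannot order them. With COP1-siRNA in Huh7 cells SHMT2, at 290 TPM, stood above PSAT1, at 278 TPM. Between the lines with NC-siRNA, PHGDH moved from the third place to the first, and MTHFD1 and MTHFD2 moved up, while PSAT1 dropped from the first place to the fourth.

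**Figure D1:**
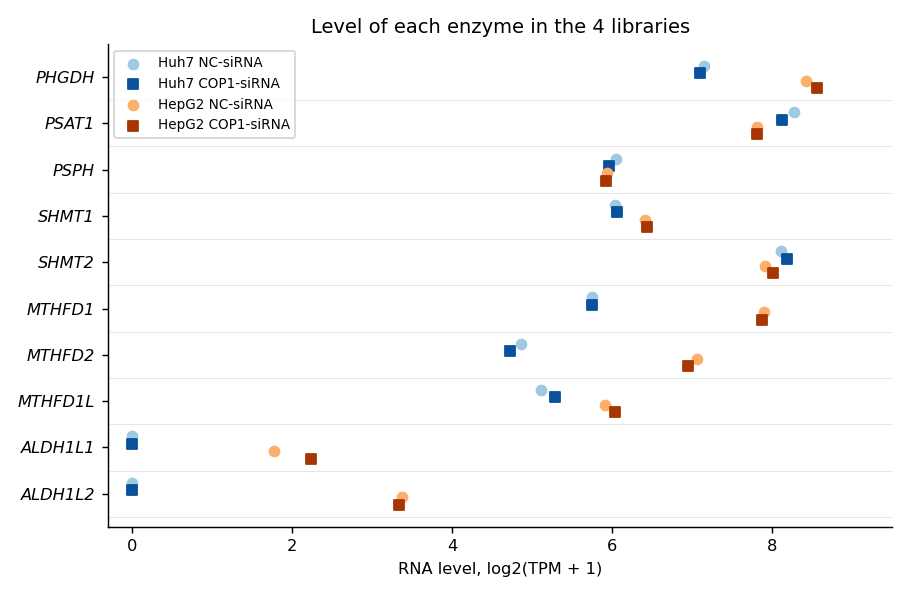
RNA level of each enzyme, as log2(TPM + 1), in the 4 libraries, 1 point per library. The 2 Huh7 points of an enzyme lie close to each other, as do the 2 HepG2 points, and of the 8 enzymes above 0 in every library, MTHFD1, MTHFD2 and PHGDH have the widest gap between the lines. The ALDH1L pair is at 0 in Huh7 cells.

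How a level compares between genes also rests on the transcript length it is divided by. The tables give a second measure, the coverage (mean read depth per base), and once this is scaled for depth, PSAT1 and MTHFD1 had 1.00 unit per TPM, whereas PSPH had 0.21 to 0.23, PHGDH 0.18 and MTHFD1L 0.07. The order between genes therefore changes with the measure. With NC-siRNA, only MTHFD1L of the 8 enzymes above 0 in both lines moved by more than 0.1 in its log2 difference between the lines. It went to 0.65 from 0.79. The same 1 was added to the scaled coverage, where it weighs more for a gene with so few units per TPM. Without the added 1, MTHFD1L had 0.067 units per TPM in Huh7 cells and 0.069 in HepG2 cells with NC-siRNA, so the coverage itself did not lower the difference.

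The question of the knockdown is whether these enzymes shifted with COP1. On the scale of TPM + 1 none did by 2-fold or by 1.5-fold in either line: the count was 0 of the 8 enzymes tested in Huh7 cells and 0 of the 10 tested in HepG2 cells. A gene was tested where its level reached 1 TPM in at least 1 library of the comparison, and the change is log2 of the ratio of TPM + 1, which understates the change of genes at low level. Over all 13000 genes tested in Huh7 cells, 0.638% were 2-fold higher and 0.446% 2-fold lower, and at 1.5-fold 2.80% were higher and 2.68% lower. Over the 14456 genes tested in HepG2 cells the shares were 0.540% and 0.394% at 2-fold and 2.56% and 1.87% at 1.5-fold. With backgrounds this low, 8 or 10 genes without a call are not set apart from other genes.

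The median log2 change of the enzymes was -0.02 in Huh7 cells, where 4 were above 0 and 4 below, and 0.01 in HepG2 cells, where 5 were above and 5 below. The medians over all tested genes were -0.00083 and -0.0080. The 10 enzymes together summed to 965 (NC-siRNA) and 947 TPM (COP1-siRNA) in Huh7 cells, 98.2% of the control. In HepG2 cells the sum was 1388 and 1433 TPM, 103% of the control.

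**Figure D2:**
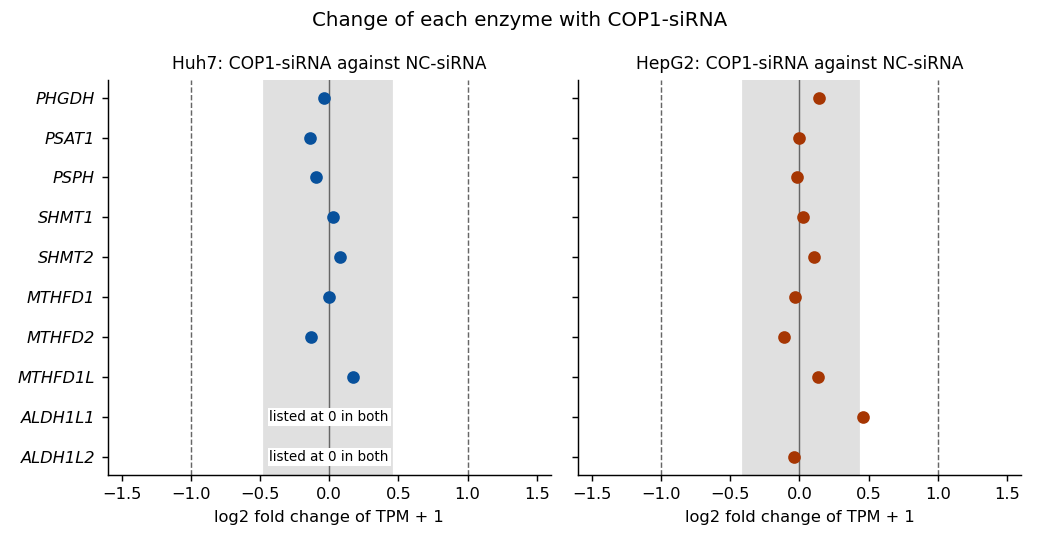
Change of each enzyme with COP1-siRNA, as the log2 ratio of TPM + 1, in Huh7 cells (left) and HepG2 cells (right). The grey band holds the middle 90% of all tested genes and the dashed lines mark 2-fold: every Huh7 value lies between -0.14 and 0.17 inside the band, and in HepG2 cells only ALDH1L1, at 0.46, lies just beyond it.

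PHGDH, the dehydrogenase that commits carbon to serine, was at 140 and 136 TPM in Huh7 cells (NC-siRNA first, here and below) and at 340.5 and 375 TPM in HepG2 cells. Both HepG2 libraries were above both Huh7 libraries. The log2 change with COP1-siRNA was -0.04 in Huh7 cells and 0.14 in HepG2 cells. Among the 500 tested genes nearest in level, 46.2% had a lower change in Huh7 cells and 84.2% in HepG2 cells, so both lay inside the spread usual at that level. The difference between the lines in this response, 0.18, was the largest among the 8 enzymes tested in both, against a range of -0.47 to 0.48 that held the middle 90% of 11970 genes. This difference was not tested.

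PSAT1, the aminotransferase of the next step, was at 307 and 278 TPM in Huh7 cells, and at 224 TPM with both siRNAs in HepG2 cells. Its log2 change was -0.14 (percentile 24.8 of the 500 nearest genes) and -0.0012 (percentile 49.2). PSPH, the phosphatase that releases serine, was at 65.4 and 61.2 TPM in Huh7 cells and at 60.3 and 59.6 TPM in HepG2 cells. Its log2 changes of -0.09 and -0.02 stood at percentiles 33.4 and 49.0. The 3 enzymes of serine synthesis summed to 512 and 476 TPM in Huh7 cells and to 625 and 659 TPM in HepG2 cells, so the sum with COP1-siRNA was 92.9% of the control in Huh7 cells and 105% in HepG2 cells.

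Of the enzymes that split serine into glycine and a folate-bound carbon, SHMT1 was at 64.5 and 65.9 TPM in Huh7 cells and at 84.0 and 85.7 TPM in HepG2 cells. Its log2 change with COP1-siRNA was 0.03 in both lines. SHMT2 was at 274 and 290 TPM in Huh7 cells and at 239 and 257 TPM in HepG2 cells, with log2 changes of 0.08 and 0.10 at percentiles 76.6 and 74.0. In plain TPM these were ratios of 1.06 and 1.07, short of 1.5-fold.

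MTHFD1, the cytosolic enzyme that carries the 3 folate interconversions on 1 protein, was at 52.6 TPM with either siRNA in Huh7 cells and at 237 and 232 TPM in HepG2 cells. Its log2 change was 0.0018 and -0.03. MTHFD2, the mitochondrial dehydrogenase and cyclohydrolase, was at 28.0 and 25.5 TPM in Huh7 cells and at 132 and 122 TPM in HepG2 cells. It was the enzyme nearest to a shared decrease, with log2 changes of -0.13 and -0.11, at percentiles 28.6 and 22.8. MTHFD1L, which releases formate from the mitochondrial pool, was at 33.6 and 38.0 TPM in Huh7 cells and at 58.9 and 64.6 TPM in HepG2 cells. Its log2 changes of 0.17 and 0.13 were the highest and the third highest of the set in their line, at percentiles 85.8 and 79.8.

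The 10-formyltetrahydrofolate dehydrogenases were listed at 0 in both Huh7 libraries. In HepG2 cells ALDH1L1 was at 2.44 and 3.72 TPM, on a coverage of 4.80 and 9.43 reads per base. The coverage is not scaled for depth, and the ratio of coverage to FPKM was 1.27-fold as high with COP1-siRNA. In TPM the change of ALDH1L1 was the largest of the set, 0.46 on the log2(TPM + 1) scale at percentile 92.2 of the 500 nearest genes. It was 1.53-fold in plain TPM. On the FPKM scale, where the same added 1 weighs more, it was 0.33. ALDH1L2 was at 9.39 and 9.12 TPM, a log2 change of -0.04. A value of bulk RNA cannot separate fewer cells carrying a transcript from less of it per cell, and this holds for every level given here.

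The wider differences lay between the lines, compared over the same 4 libraries. In HepG2 cells 5 of the 10 enzymes were at least 2-fold higher than in Huh7 cells, with NC-siRNA and with COP1-siRNA alike, and 0 were 2-fold lower. The count of 0 lower takes PSPH without its pseudogene PSPHP1, described below. The summed TPM of PSPH and PSPHP1 was 2-fold lower, at -1.51 and -1.46, but it adds levels per transcript length and not reads. The 5 higher were PHGDH, MTHFD1 and MTHFD2, and ALDH1L1 and ALDH1L2, for which the Huh7 values were listed at 0. Such differences were common: of all tested genes, 27.9% were 2-fold higher in HepG2 cells and 14.7% lower with NC-siRNA, and 26.0% and 14.0% with COP1-siRNA. Counting only genes above 0 in both libraries, 3 of 8 enzymes were 2-fold higher, against 23.5% of such genes with NC-siRNA and 22.0% with COP1-siRNA. The lines differ in much besides these genes, and each line stands for 1 cell line of its kind.

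The median log2 difference of the 8 enzymes with values above 0 was 0.58 with NC-siRNA and 0.56 with COP1-siRNA. Over all 10 it was 1.03 and 1.10, values that depend on the added 1 for the ALDH1L pair. The median over all tested genes was itself shifted to 0.37 and 0.35 in favour of HepG2 cells. The top 10 genes of a library took up 13.2% and 14.6% of its TPM in Huh7 cells and 8.02% and 8.05% in HepG2 cells. The part of this in the shift was not tested, and differences are given below also relative to it.

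**Figure D3:**
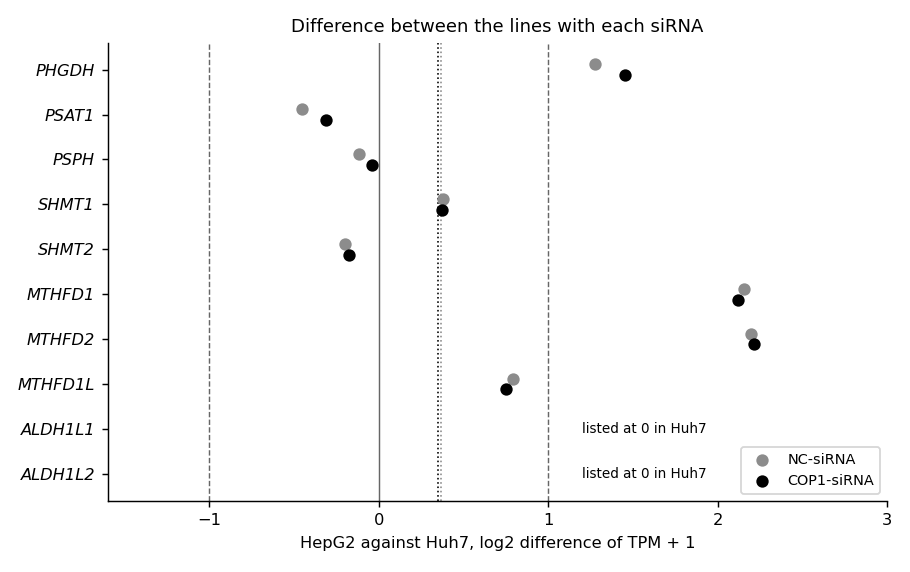
Difference between HepG2 and Huh7 cells for each enzyme, as the log2 ratio of TPM + 1, with NC-siRNA (grey) and with COP1-siRNA (black). Dotted lines mark the medians over all tested genes, 0.37 and 0.35, and dashed lines mark 2-fold. PHGDH, MTHFD1 and MTHFD2 lie beyond 2-fold with both siRNAs, and no ratio is drawn for the 2 enzymes listed at 0 in Huh7 cells.

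MTHFD1 was 4.51-fold higher in HepG2 cells with NC-siRNA and 4.41-fold higher with COP1-siRNA, in plain TPM, and MTHFD2 was 4.70-fold and 4.79-fold higher. On the log2 scale the differences were 2.15 and 2.12 for MTHFD1 and 2.19 and 2.22 for MTHFD2, above 98.6% and 99.0% of the 500 genes nearest in level. Relative to the median of all genes, 1.78 and 1.77 were left for MTHFD1 and 1.83 and 1.87 for MTHFD2. Under median-of-ratios scaling the differences with NC-siRNA were 1.90 and 1.94. Both enzymes, in different compartments, were thus at least 2-fold higher in HepG2 cells under each of these scalings.

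PHGDH was 2.43-fold higher in HepG2 cells with NC-siRNA and 2.76-fold higher with COP1-siRNA, log2 differences of 1.27 and 1.46. Relative to the median of all genes these were 0.91 and 1.11, so the first lay just short of 2-fold on that base and the second just past it. MTHFD1L differed by 0.79 and 0.75, and by 0.42 and 0.40 relative to the median. SHMT1, at 0.38 and 0.37, lay at about the median of all genes. PSAT1, at -0.45 and -0.31, PSPH, at -0.12 and -0.04, and SHMT2, at -0.20 and -0.17, were on the side of Huh7 cells without reaching 1.5-fold. Relative to the median of all genes the difference of PSAT1 was -0.82 and -0.66, past 1.5-fold but not 2-fold on that base.

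In the balance within the pathway, the TPM levels of the first enzymes of serine synthesis stood in opposite order in the lines, an order that the coverage did not show. The level of PSAT1 was 2.19 times that of PHGDH in Huh7 cells with NC-siRNA and 2.04 times with COP1-siRNA. In HepG2 cells it was 0.66 and 0.60 times. By coverage PSAT1 was above PHGDH in both lines, at 819 against 66.6 reads per base in Huh7 cells with NC-siRNA and at 557 against 151 in HepG2 cells with NC-siRNA. The level of SHMT2 was 9.78 and 11.4 times that of MTHFD2, the enzyme that follows it in mitochondria, in Huh7 cells, and 1.81 and 2.1 times in HepG2 cells. The 3 MTHFD enzymes summed to 114 and 116 TPM in Huh7 cells and to 428 and 419 TPM in HepG2 cells, 3.75-fold and 3.61-fold as much, whereas the SHMT pair summed to 339 and 356 TPM in Huh7 cells and to 323 and 342 TPM in HepG2 cells. Within each line these ratios differed little between the siRNAs beside the gap between the lines, and the gap was not tested.

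The mitochondrial enzyme made up most of the SHMT pair in each library. SHMT2 held 81.0% and 81.5% of the pair's summed TPM in Huh7 cells and 74.0% and 75.0% in HepG2 cells. Of the ALDH1L pair, ALDH1L2 held 79.4% in HepG2 cells with NC-siRNA and 71.0% with COP1-siRNA. Of MTHFD1L and MTHFD1, the mitochondrial MTHFD1L held 39.0% and 41.9% in Huh7 cells and 19.9% and 21.8% in HepG2 cells. On the scaled coverage its share was 4.10% and 4.52% in Huh7 cells and 1.69% and 1.93% in HepG2 cells. The share of this pair was lower in HepG2 cells by either measure, while its size rests on the measure.

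**Figure D4:**
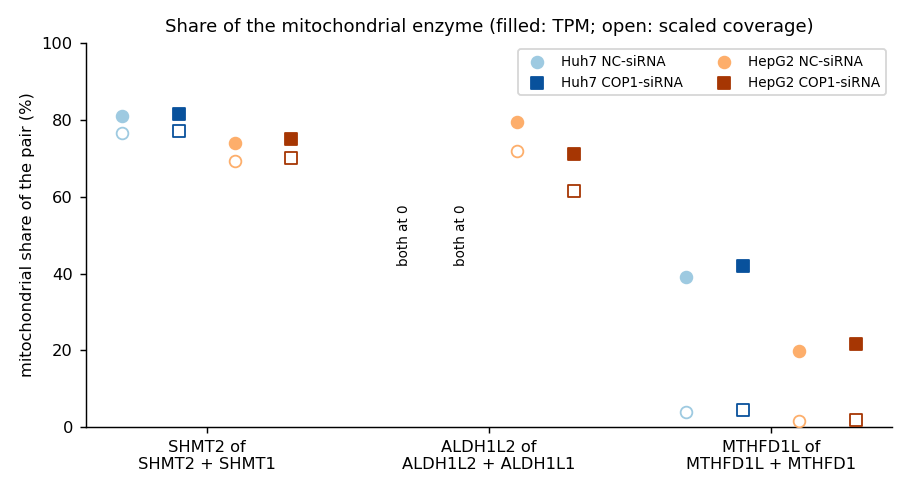
Share of the mitochondrial enzyme in 3 pairs of a mitochondrial and a cytosolic enzyme, in percent, for each library. Filled points are shares of summed TPM and open points shares of summed scaled coverage: SHMT2 holds 69.2% to 81.5% by either measure, while the share of MTHFD1L lies at 19.9% to 41.9% on TPM and at 1.69% to 4.52% on coverage.

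PSPH has a related pseudogene on the same chromosome, PSPHP1 at chr7:55764797-55773683 on the plus strand. It was listed at 109 and 104 TPM in Huh7 cells, above PSPH itself, and at 0 in both HepG2 libraries. Of the 212 windows of 50 bases in its 261-base GENCODE 29 transcript, 34.4% also occur in PSPH transcripts, so reads can be divided between them in more than 1 way. With both summed, the levels were 174 and 166 TPM in Huh7 cells and 60.3 and 59.6 TPM in HepG2 cells. On that sum the log2 difference between the lines was -1.51 with NC-siRNA and -1.46 with COP1-siRNA, in place of -0.12 and -0.04 for PSPH alone. The changes with COP1-siRNA were -0.07 and -0.02, close to those of PSPH alone. The sum was added once these values had been seen. It adds levels per transcript length and not reads, so it is not the level PSPH would have with the reads of PSPHP1. The level of PSPH in Huh7 cells is uncertain because reads can be divided in more than 1 way. The 11 further pseudogenes of the enzymes reached at most 0.164 TPM. SMCR8, which overlaps SHMT1 by 197 bases on the opposite strand, was at 18.1 to 24.9 TPM, and how reads of overlapping genes were divided is not given in the sources used here.

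Of the genes around the pathway, 1 passed 2-fold with COP1-siRNA on the scale of TPM + 1. In the folate cycle list (14 genes, 12 tested in Huh7 cells and 13 in HepG2 cells), SLC46A1, the proton-coupled folate transporter, fell from 18.2 to 7.17 TPM in Huh7 cells, a log2 change of -1.23 at percentile 0.2. In HepG2 cells it was at 7.39 and 4.72 TPM, a log2 value of -0.55 at percentile 2.0, not past 1.5-fold on the scale of TPM + 1. In plain TPM the ratio was 0.64, which is past 1.5-fold lower. The highest changes of this list were 0.47 for MTFMT, the mitochondrial methionyl-tRNA formyltransferase, in Huh7 cells and 0.44 for FTCD, of histidine breakdown, in HepG2 cells. The list medians were 0.02 and 0.01. FTCD, at 0.0649 and 0.0674 TPM in Huh7 cells and 4.76 and 6.80 TPM in HepG2 cells, differed between the lines by 2.43 with NC-siRNA and 2.87 with COP1-siRNA on the log2 scale. With NC-siRNA 3 of the 13 tested genes of this list were 2-fold higher in HepG2 cells and 1 lower, and with COP1-siRNA 2 were higher and 0 lower. Beside this list and those below, 27.9% of all tested genes were higher and 14.7% lower with NC-siRNA. With COP1-siRNA the shares were 26.0% and 14.0%.

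In the list of glycine and serine use (14 genes, 13 tested in Huh7 cells and 12 in HepG2 cells), 0 passed 2-fold in either line, and the medians were -0.12 and 0.04. SARDH, the mitochondrial sarcosine dehydrogenase, was at 44.0 and 26.0 TPM in Huh7 cells, a log2 change of -0.74 past 1.5-fold, and at 3.67 and 4.73 TPM in HepG2 cells, a change of 0.29. SFXN1, a mitochondrial serine transporter, had the highest change in Huh7 cells, 0.24, and SRR, serine racemase, the lowest in HepG2 cells, -0.28. Between the lines 4 of 13 tested genes were 2-fold lower in HepG2 cells and 1 higher with NC-siRNA, and 3 were lower and 1 higher with COP1-siRNA. The largest differences were those of SARDH and of DMGDH, the neighbouring dimethylglycine dehydrogenase. They were -3.27 and -1.97 with NC-siRNA and -2.24 and -1.49 with COP1-siRNA on the log2 scale.

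In the methionine cycle and transsulfuration list (12 genes, 11 tested in each line), 0 passed 2-fold with COP1-siRNA on the scale of TPM + 1, and the medians were 0.02 and 0.10. CBS, the first enzyme of transsulfuration, gave the lowest value in both lines, from 53.4 to 34.5 TPM in Huh7 cells (log2 -0.62, past 1.5-fold) and from 98.0 to 78.7 TPM in HepG2 cells (-0.31). MAT1A, the liver methionine adenosyltransferase, gave the highest value in Huh7 cells, 0.50, at the low level of 0.76 and 1.48 TPM. In HepG2 cells MAT1A gave 0.60, past 1.5-fold, from 10.3 to 16.1 TPM. The highest value in HepG2 cells was that of BHMT, betaine-homocysteine methyltransferase, 0.86 from 1.38 to 3.34 TPM, which is 2.41-fold in plain TPM. Between the lines 2 of 11 tested genes were 2-fold higher in HepG2 cells and 1 lower with NC-siRNA, and 3 were higher and 1 lower with COP1-siRNA. The lower gene was BHMT2, a methyltransferase related to BHMT, with log2 differences of -4.43 with NC-siRNA and -3.95 with COP1-siRNA. Of the higher genes, MAT1A differed most, by 2.68 and 2.78.

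Of the 6 enzymes of purine synthesis, a route that takes up formyl groups, 0 passed 2-fold with COP1-siRNA, and the medians were -0.02 and -0.03. ADSL, adenylosuccinate lyase, was at 70.9 and 107 TPM in Huh7 cells and at 155 and 157 TPM in HepG2 cells. Its log2 change in Huh7 cells, 0.58, was just short of 1.5-fold on the scale of TPM + 1, and 1.51-fold in plain TPM. The lowest value in Huh7 cells was -0.17, for ATIC, and the HepG2 values ran from -0.16 for PPAT to 0.20 for PFAS. Between the lines 3 of 6 were 2-fold higher in HepG2 cells with NC-siRNA and 2 of 6 with COP1-siRNA, against 27.9% and 26.0% of all tested genes. The largest differences were those of GART, which carries 3 steps of the route, at 1.99 and 1.83, and of PAICS, at 1.14 and 1.03.

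ATF4, a transcription factor known to drive serine and one-carbon genes, and its targets (6 genes) held 0 past 2-fold with COP1-siRNA, with medians of -0.01 in Huh7 cells and 0.14 in HepG2 cells. The highest values were 0.47 for CHAC1 in Huh7 cells and 0.43 for TRIB3 in HepG2 cells, and the lowest were those of SESN2, -0.51 and -0.13. Between the lines the list was divided, with 3 of 6 at least 2-fold higher in HepG2 cells and 2 of 6 lower, with each siRNA. ATF4 itself was among the higher genes, by 1.54 with NC-siRNA and 1.57 with COP1-siRNA on the log2 scale. ASNS, asparagine synthetase, was higher by 1.65 with NC-siRNA and 1.86 with COP1-siRNA, whereas the log2 difference was -2.17 for TRIB3 with NC-siRNA, and -1.88 and -1.80 for DDIT3 with NC-siRNA and COP1-siRNA.

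The 8 proliferation genes held 0 past 2-fold with COP1-siRNA, with medians of -0.02 and -0.03 and extremes of -0.26 for CDK1 and 0.20 for BIRC5 in Huh7 cells and of -0.31 for CCNB1 and 0.15 for MCM5 in HepG2 cells. Between the lines only BIRC5 of this list was 2-fold different, at 1.64 with NC-siRNA and 1.40 with COP1-siRNA. Among the hepatocyte markers in HepG2 cells, 9 of 9 had a log2 value above 0, with a median of 0.40, against -0.0080 over all tested genes. Of these, 1 was 2-fold higher, against 0.540% of all tested genes. It was FGB, a fibrinogen chain, which rose from 6.97 to 15.5 TPM, a log2 change of 1.05. In Huh7 cells 8 of 9 hepatocyte markers were below 0 with a median of -0.11, against -0.00083 over all tested genes, and 0 passed 2-fold. The 5 markers of other cells tested in HepG2 cells had a median of 0.43 and the 4 tested in Huh7 cells 0.25. Between the lines 7 of 9 hepatocyte markers were at least 2-fold lower in HepG2 cells with either siRNA, against 14.7% (NC-siRNA) and 14.0% (COP1-siRNA) of all tested genes. The part of these markers in the levels of the 10 enzymes was not tested.

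**Figure D5:**
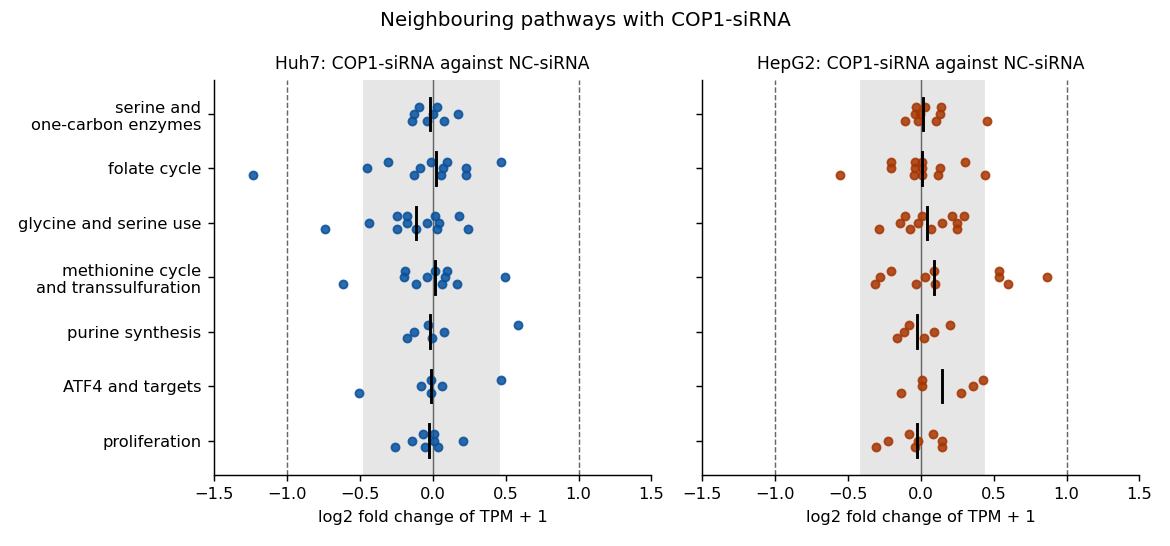
Changes with COP1-siRNA, as the log2 ratio of TPM + 1, of the enzymes and of 6 lists of related genes, 1 point per tested gene and a black bar at the list's median, in Huh7 cells (left) and HepG2 cells (right). The grey band holds the middle 90% of all tested genes, and only SLC46A1 in Huh7 cells, at -1.23, passes the dashed 2-fold lines.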

How the data were processed

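Sequencing was of stranded poly(A) libraries of Huh7 and HepG2 cells, 1 per line and siRNA, grouped by their labels. The submitters' processing notes name FastQC 0.11.7, Trimmomatic 0.38, HISAT2 2.1.0, StringTie 2.1.3b, edgeR and GRCh38. The annotation is not given in the sources used here. The authors deposited for each gene a TPM, an FPKM and a coverage. The deposited TPM sums to 1000000 per library, the deposited FPKM is proportional to it, and the deposited coverage is a mean depth per base, not normalized. Read counts were not used here and depth is unknown, so no interval could be computed and no test was made.

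The name column held 2 placeholders only, so genes were found by Gene number, of which 44698 of 46427 were in RefSeq. Lines of 52 repeated numbers were summed; no enzyme was among them. Changes were log2((TPM + 1)/(TPM + 1)) for genes at 1 TPM or more in at least 1 library, with a 2-fold threshold, and were placed among the 500 tested genes nearest in mean level. The named genes were the 10 enzymes, COP1, and of each list the genes past 2-fold with COP1-siRNA, the highest and lowest change in each line and the 2 largest differences between lines. ATF4, VIM, PTPRC, SMCR8 and PSPHP1 were named outside this rule, after their values were seen. A gene that the rule names is not reported here. The enzymes and lists were chosen with earlier results of these data known. The computation was tested on simulated data. Alternatives were another or no pseudocount, FPKM, scaled coverage, median-of-ratios and upper-quartile scaling, other minimum TPM, repeated numbers kept apart and 1.5-fold. Python 3.11.15, numpy 2.4.6, pandas 2.3.3 and matplotlib 3.10.9 were used.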

Additional observations from a re-analysis of the deposited data

Results flagged for a closer look

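The response of SARDH, sarcosine dehydrogenase, went opposite ways in the lines: its log2 change with COP1-siRNA was -0.74 in Huh7 cells and 0.29 in HepG2 cells, a difference of 1.03. The difference was not tested, since each condition had 1 library.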

How the results depend on the processing

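With COP1-siRNA, 0 enzymes passed 2-fold under every alternative run. Of 118 single values of the enzymes 106 stayed within 0.1 of the reported one on the log2 scale, in a range of -0.14 to 0.61. These values include those of ALDH1L1 and ALDH1L2 in Huh7 cells, which are listed at 0 in both libraries and so cannot move. Of the single differences between the lines, 18 moved by more than 0.1 under median-of-ratios scaling and 2 did not. Upper-quartile scaling moved the median of all genes in Huh7 cells to 0.12 and that of the enzymes with it, to 0.12. Between the lines, 3 enzymes were 2-fold higher with each siRNA on the plain TPM ratio, which cannot be formed for those listed at 0 in Huh7 cells. The median difference of the enzymes, with NC-siRNA and COP1-siRNA, was 0.60 and 0.57 on the plain ratio, 0.78 and 0.86 under median-of-ratios scaling, and 0.79 and 0.75 with a minimum of 5 TPM. On scaled coverage, SHMT2 held 76.6% and 77.2% of its pair in Huh7 cells (NC-siRNA, then COP1-siRNA) and 69.2% and 70.0% in HepG2 cells, ALDH1L2 held 71.9% and 61.5% of its pair in HepG2 cells, and MTHFD1L held 4.10% and 4.52% in Huh7 cells and 1.69% and 1.93% in HepG2 cells. The summed TPM of PSPH and PSPHP1 was past 2-fold lower in HepG2 cells, at -1.51 and -1.46, against -0.12 and -0.04 for PSPH alone. That sum adds levels per transcript length and not reads. No direction past 2-fold reversed. No paired analysis by replicate number was possible because the labels give no such numbers, and no model that blocks on cell line was fitted. Read counts were not used, so the precision of low values such as ALDH1L1 is unknown.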
